A study of Caenorhabditis elegans with 14 samples.

Results

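The peaks described here are the 68668 of 162556 listed crosslinking peaks that lie in the low-recombination centres of Caenorhabditis elegans chromosomes II, III, IV and V. A peak was taken when its midpoint lay between 4.88 and 12.02 Mb on II, 3.72 and 10.34 Mb on III, 3.90 and 12.97 Mb on IV or 5.90 and 16.55 Mb on V, in build ce10. Both strands were used and no value of a peak entered the choice. The centres cover 33.48 Mb, against 33.98 Mb from the chromosome starts and ends up to the bounds, measured to the last listed peak and called the arms here, tips included. Of all listed peaks, 41860 lay in the arms of II to V and 17587 on chromosome X.

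The study mapped RNA bound by EIF-3.G with single-end enhanced CLIP (seCLIP), in which RNA is crosslinked to protein by ultraviolet light, the protein is precipitated, and the attached RNA is sequenced next to a library of the input lysate. Mixed-stage worms were crosslinked at 3 kJ/m2. The protein carried a 3xFLAG tag and was expressed from transgenes under the Punc-17beta promoter, which is active in cholinergic motor neurons, and anti-FLAG M2 was used for precipitation. The 14 samples comprised 7 CLIP libraries, each with its own input library. The intact protein, (+), came from the transgene juSi364 in worms with the allele acr-2(n2420). The C130Y form, a cysteine to tyrosine substitution, came from juSi365 in worms with eif-3.G(ju807) and acr-2(n2420). The ΔRRM form, which lacks the RNA recognition motif, came from juSi368 in worms with acr-2(n2420). Each tagged form had 2 CLIP libraries. The control, called N2 or the no-transgene library here, was 1 library of wild type N2 worms that carried no transgene. Its source label speaks of IgG and its antibody label of anti-FLAG M2. These worms also lacked acr-2(n2420), so any comparison with them changes both the transgene and the strain background, and C130Y differed from (+) in the allele of eif-3.G as well. Each form is 1 transgene, the labels give no tag to the endogenous eif-3.G, and whole worms were lysed, so the cell type rests on the promoter and was not checked against marker genes.

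EIF-3.G is a subunit of eIF3, the large initiation factor that binds the small ribosomal subunit and helps to bring it to messenger RNA. The g subunit carries an RNA recognition motif, a common fold that contacts single-stranded RNA. The acr-2 gene encodes a subunit of an acetylcholine receptor of motor neurons, and n2420 is a gain-of-function allele of it that causes convulsions. The centres of worm autosomes recombine rarely, are dense in genes and hold many of the conserved and widely expressed ones, while the arms recombine more and are richer in repeats.

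Centres and arms were of nearly equal length, yet the centres held between 61.4% and 65.2% of the peaks listed on II to V in each of the 7 libraries. The density of listed peaks in the centres was 1.62 to 1.9 times that in the arms, and it was highest in ΔRRM replicate 1. In the centres 14228 and 10653 peaks were listed for (+), 11213 and 15221 for C130Y, 4924 and 9409 for ΔRRM and 3020 for N2. The CLIP totals recovered from the deposited values were 1.57 to 1.70 M reads in (+), 1.22 to 1.72 M in C130Y, 0.544 to 0.893 M in ΔRRM and 0.192 M in N2, with input totals of 1.14 to 3.03 M and of 0.429 M in N2. The ΔRRM and no-transgene lists were thus the shallowest and also the shortest. The strands were used about equally, since 50.1% to 51.0% of the peaks listed in the centres lay on the plus strand.

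Few of the listed peaks stood above input. A peak was called enriched when its deposited log2 ratio of CLIP over input was at least 1 and its deposited −log10 p-value was at least 3. In (+) the centres held 264 enriched peaks in replicate 1, 1.86% of those listed, where 1.86% of all listed peaks of that library passed. Replicate 2 had 272, 2.55% of those listed, and its genome-wide share was 2.55%. In C130Y the numbers were 548 and 407, or 4.89% and 2.67%, against 4.44% and 2.64% of all listed peaks. In ΔRRM they were 802 and 520, or 16.3% and 5.53%, against 16% and 5.34%. Without a transgene 306 peaks passed, 10.1% of those listed, against 8.58% of all. The share in the centres was thus close to that of the whole library in each tagged list, and the no-transgene list, which has no tagged protein, had a larger share than 5 of the 6 tagged lists.

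Against the arms of the same chromosomes the share was slightly higher in the centres. The arms had 1.61% and 2.07% for (+), 3.67% and 2.20% for C130Y, 12.9% and 4.18% for ΔRRM and 8.34% for N2. The centre exceeded the arms by 0.24 and 0.49 percentage points in (+), by 1.22 and 0.48 in C130Y and by 3.34 and 1.35 in ΔRRM. The mean difference of 1.18 points was positive in 6 of 6 tagged libraries, with an exact two-sided sign-flip permutation p of 0.0313, the smallest that 6 libraries allow, and 0.0625 after Benjamini-Hochberg adjustment over the comparisons with the arms and with X. N2 showed the same direction, with 1.79 points. At a log2 of at least 3 the mean difference was 0.17 points and the exact permutation p was 0.938. Nothing in the labels says whether replicates came from separate cultures, so the p-values here reflect no more than the spread among libraries, and that spread may be technical.

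Chromosome X gave no such order among the tagged libraries. Its enriched share was 1.69% and 2.75% for (+), 4.31% and 2.87% for C130Y, 19.4% and 6.71% for ΔRRM and 2.92% for N2. The centres were lower than X by 0.66 points on average, with an exact permutation p of 0.313, and in 4 of 6 tagged libraries. At a log2 of at least 3 the centres were lower by 1.145 points, with an exact permutation p of 0.0313. The no-transgene library stood apart, since its share in the centres was 7.22 points above its share on X.

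**Figure D1:**
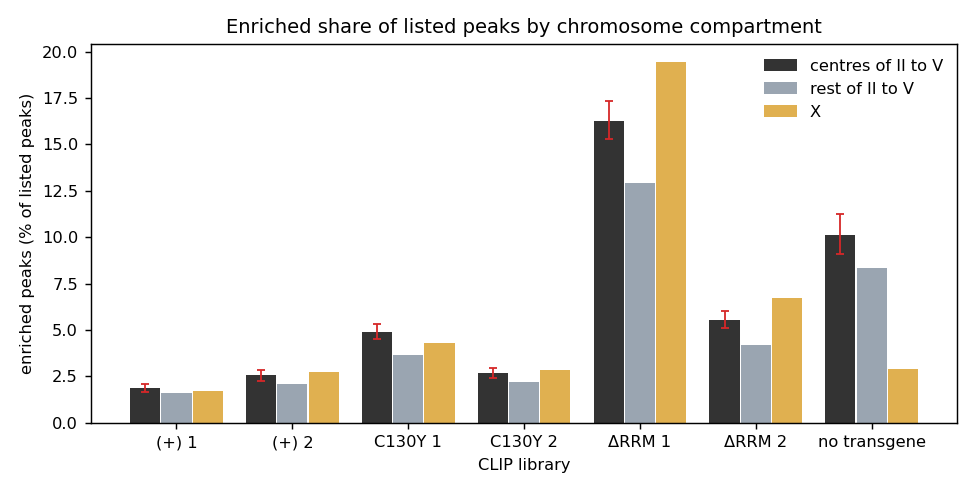
Enriched peaks as a percentage of listed peaks in each CLIP library, for the centres of II to V (dark bars), the rest of II to V (grey bars) and X (yellow bars). Red lines are 95% Wilson intervals of the centre shares, which cover counting error only. The dark bar exceeds the grey bar in all 7 libraries, and the no-transgene library has 10.1% in the centres and 2.92% on X.

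The 4 chromosomes did not share this difference. On II and V the centre exceeded its arms in 6 of 6 tagged libraries, and on III in 5 of 6. On IV it did so in both ΔRRM libraries alone, by 1.03 and 0.02 points, while both (+) and both C130Y libraries had the larger share in the arms. By share of listed peaks chromosome V led, with the highest enriched share of the 4 centres in 6 of 6 tagged libraries. Its shares were 2.45% and 3.57% for (+), 6.83% and 3.60% for C130Y and 19.9% and 6.89% for ΔRRM. It held 29.8% to 33.8% of the enriched centre peaks of the tagged libraries but 23.0% to 24.4% of the listed ones. The centre of V is the longest, 10.65 of 33.48 Mb, and had the fewest listed peaks per Mb in every library. Per Mb it led in enriched peaks in no tagged library. It had 7.98 against 9.10 on II in (+) replicate 1, and 22.4 against 30.2 on III in ΔRRM replicate 1. In the no-transgene library the highest share was that of III, 11.3%, and V had 9.91%. Without chromosome V the mean difference between centres and arms was 0.668 points, again positive in 6 of 6 tagged libraries with an exact permutation p of 0.0313.

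Read numbers were recovered only for peaks with a log2 above 0 and a −log10 p above 0 and below its cap of 400. Listed centre peaks with a −log10 p of 0, left out here, made up 52.8% and 53.7% for (+) and 23.0% and 41.2% for C130Y. They made up 3.03% and 10.4% for ΔRRM and 14.7% for N2. Among recovered peaks mean depth was higher in the centres of the tagged libraries. The median of 4 to 6 CLIP reads per recovered peak was the same in centres and arms in each of the 7 libraries. The mean number of CLIP reads per recovered peak was 25.1 and 24.7 in the centres against 21.6 and 20.1 in the arms for (+). For C130Y it was 14.5 and 21.1 against 11.3 and 17.9, and for ΔRRM 13.2 and 13.8 against 11.4 and 11.3. Among recovered peaks with at least 20 CLIP reads the enriched share was higher in the centres in C130Y replicate 1, 43.9% against 38.4%. It was also higher there in both ΔRRM libraries, 68.3% against 64.6% and 44.7% against 39.1%. It was lower in the centres in both (+) libraries, 23.5% against 26.3% and 35.6% against 36.3%, and in C130Y replicate 2, 28.3% against 30.9%. These shares leave out peaks with a log2 below 0 and enriched peaks at the cap, so they are not shares of all listed peaks of that depth. The part that read depth has in the difference was not tested.

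The bounds themselves marked no uniform step. In the 0.5 Mb just inside the bounds, 2.07% and 2.87% of the (+) peaks were enriched, against 2.23% and 1.84% in the 0.5 Mb just outside. The C130Y shares were 5.49% and 3.13% inside and 3.70% and 1.52% outside, and those of ΔRRM were 16.1% and 5.68% inside and 13.8% and 4.62% outside. Without a transgene the order was the reverse, 4.35% inside and 9.52% outside.

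Along the centres, enriched peaks came in uneven blocks. The 1 Mb of chromosome III from 6.72 to 7.72 Mb held 21 and 25 enriched peaks for (+), 32 and 27 for C130Y, 50 and 32 for ΔRRM and 25 for N2. The 1 Mb before it held 1 in each (+) library, 6 and 5 in C130Y, 24 and 15 in ΔRRM and 11 in N2. On IV the 1 Mb from 8.90 Mb held 20 and 15 for (+), 37 and 20 for C130Y, 40 and 24 for ΔRRM and 13 for N2. In the next 1 Mb there were 2 and 3 for (+), 1 and 0 for C130Y, 16 and 11 for ΔRRM and 4 for N2. Both dense blocks held more than their neighbour in all 7 libraries, and in both sparse blocks the ΔRRM libraries kept more peaks than the other tagged libraries. On V the last 0.65 Mb, from 15.90 Mb to the right bound, had few listed peaks, 18 to 93 per library. Of these, 3 to 11 were enriched. The enriched share was 9.33% and 18.6% for (+), 19.0% and 9.68% for C130Y, 28% and 7.89% for ΔRRM and 16.7% for N2. It lay well above that of the whole centre of V except in ΔRRM replicate 2. That library had 6.89% in the whole centre of V and 12.4% in the 1 Mb before.

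**Figure D2:**
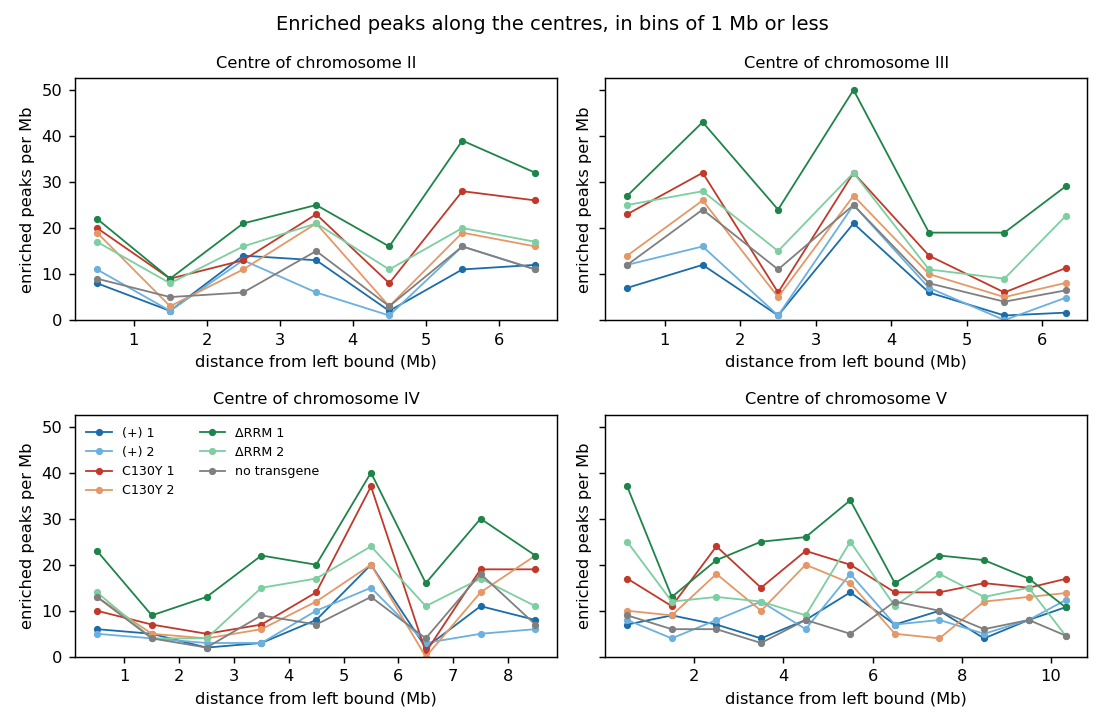
Enriched peaks per Mb in bins of 1 Mb along each centre, against the distance of the bin's middle from the left bound of the centre. Last bins shorter than 1 Mb are scaled to 1 Mb, and pieces under 0.4 Mb are left out. Each line is 1 CLIP library. ΔRRM replicate 1 reaches 50 enriched peaks per Mb at the highest point of chromosome III. The libraries do not move together everywhere: in the last bin of V both (+) lines rise to 10.8 and 12.3 while ΔRRM replicate 1 falls from 17 to 10.8 and N2 from 8 to 4.62.

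The first comparison between forms concerned the number of enriched peaks in the centres. The (+) libraries had 268 ± 5.66 (SD, n = 2) on average and the ΔRRM libraries 661 ± 199 (SD, n = 2), whose geometric means differ 2.41-fold, or by 1.27 on the log2 scale. For C130Y the mean was 477.5 ± 99.7 (SD, n = 2), with a geometric mean 1.76-fold above that of (+). Both ΔRRM and both C130Y libraries lay above both (+) libraries, with a two-sided exact permutation p of 0.333 in both cases, below which 2 against 2 libraries cannot go. C130Y and ΔRRM overlapped, with an exact permutation p of 0.667. After Benjamini-Hochberg adjustment over the 3 pairs the values were 0.5, 0.5 and 0.667. The difference between centres and arms was also larger in ΔRRM than in (+), by 1.98 points, with an exact permutation p of 0.333. That value depends on ΔRRM replicate 1, since it was 0.981 without that library and 2.975 without replicate 2, and it was 0.971 at a −log10 p of at least 5 and 0.773 at a log2 of at least 3.

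Enriched centre peaks differed in length and depth between forms. Their median length was 32 and 27 nt for (+), 34 and 36 nt for C130Y, 49 and 50 nt for ΔRRM and 52 nt in N2. Over all listed centre peaks the medians were 29 to 33 nt in the tagged libraries and 37 nt in N2, so the lengths parted at the enriched ones. The median recovered number of CLIP reads behind an enriched centre peak was 85 and 77 for (+), 31 and 68 for C130Y, 18 and 34 for ΔRRM and 24 for N2. Enriched peaks at the cap of the −log10 p-value have no recovered reads and are left out of these medians. Such peaks made up 10.2% and 13.2% of the enriched centre peaks for (+), 20.6% and 23.6% for C130Y, 4.36% and 3.08% for ΔRRM and 5.88% for N2. The ΔRRM and N2 libraries had the longest enriched peaks and the lowest CLIP totals, so for them form and depth cannot be told apart for length. C130Y replicate 2 had the highest CLIP total, 1.72 M reads, and its 36 nt lay above both (+) values. The −log10 p-value was at its cap of 400 for 27 and 36 enriched centre peaks for (+), 113 and 96 for C130Y, 35 and 16 for ΔRRM and 18 for N2, so that peaks at the cap were commonest in C130Y.

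To compare positions, the enriched peaks of all 7 libraries were merged into regions where they overlapped by at least 1 nt on a strand. The centres held 1264 of the 2738 regions, and these lay in 621 loci when regions within 5 kb of one another were joined. Most regions were seen once. Of the 1264, 731 (57.8%) had an enriched peak in 1 library, 254 in 2, 115 in 3, 56 in 4, 51 in 5, 29 in 6 and 28 in all 7. In the arms the share seen in 1 library was 58.2% and on X 51.1%.

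A region with an enriched peak in both libraries of a form was called reproducible in that form. The centres held 97 such regions in (+), 198 in C130Y and 301 in ΔRRM, in 83, 152 and 209 loci. The share of the union of a form's lists that was in both was 0.386 for (+), 0.415 for C130Y and 0.351 for ΔRRM, against 0.460, 0.414 and 0.358 in the arms. With a log2 of at least 3 required, (+) had 30 reproducible regions, C130Y 60 and ΔRRM 55, and the order of the last pair turned.

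**Figure D3:**
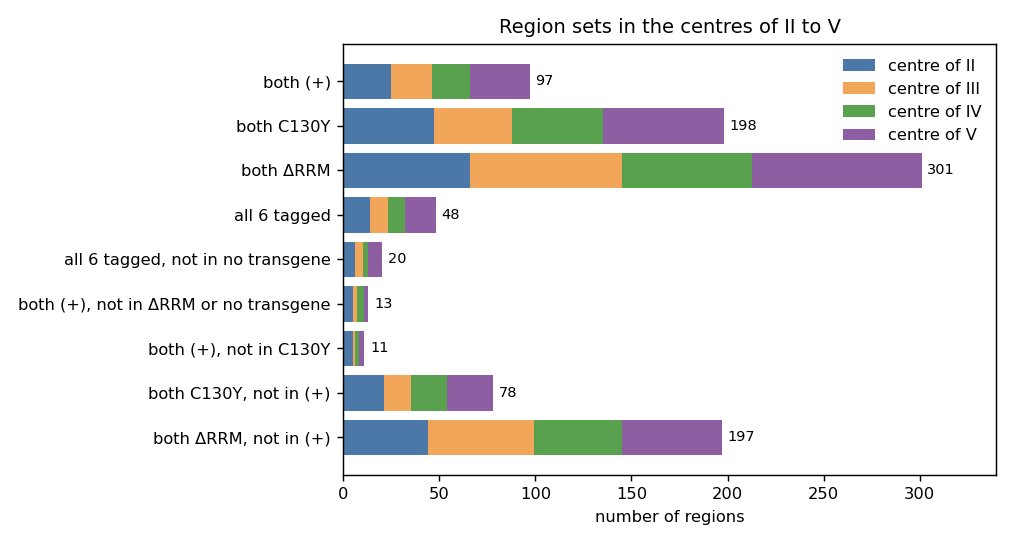
Number of regions of the centres in each set, divided by chromosome. "Not in" means no enriched peak in any library of the named form. The ΔRRM form has the longest bars, 301 reproducible regions and 197 without an enriched peak in (+).

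Replicates lay closest together in C130Y. Over the reproducible regions the median absolute difference in log2 enrichment between replicates was 0.41 in (+), 0.33 in C130Y and 1.01 in ΔRRM. Pearson's r across regions was 0.78, 0.87 and 0.66, as a description, since regions share libraries and are not independent. In ΔRRM the first library was the higher one in 272 of 301 regions, with medians of 3.25 and 2.27, while in C130Y it was the higher one in 100 of 198. In the arms the median absolute differences were 0.65, 0.52 and 1.04.

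**Figure D4:**
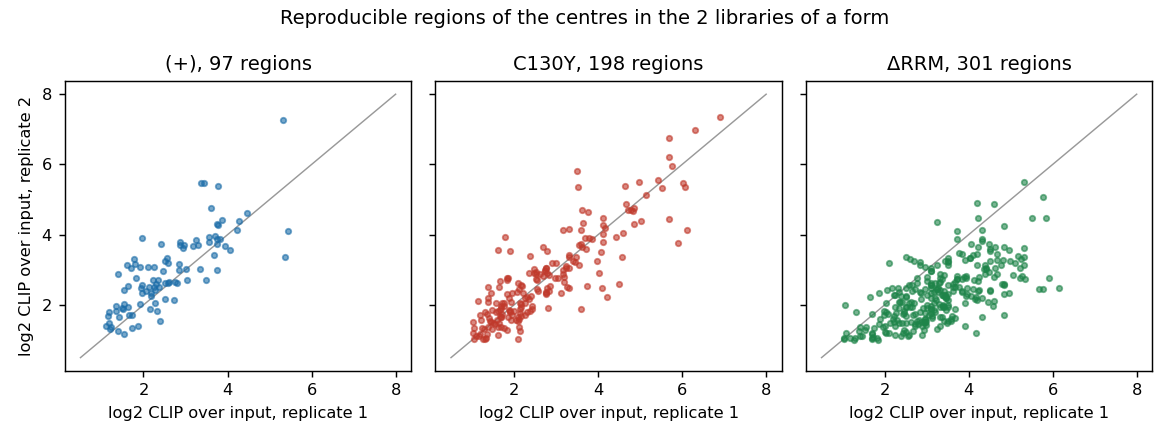
Log2 CLIP over input in replicate 2 against replicate 1 for the regions of the centres reproducible in each form, with the line of equal values. Each point is 1 region. The ΔRRM points lie below the line in 272 of 301 regions.

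In the centres 48 regions were enriched in all 6 tagged libraries, 14 on II, 9 on III, 9 on IV and 16 on V. Their median log2 enrichment was 2.76 and 3.29 for (+), 3.62 and 3.62 for C130Y and 3.57 and 2.37 for ΔRRM. Of the 48, 28 were also enriched in N2, so presence in every tagged library does not mark a region as one of the tagged protein. Over these 28 the no-transgene median was 2.77. Its value was below that of C130Y in 24 of 28 regions for each replicate, below (+) in 11 and 18, and below ΔRRM in 18 and 7. C130Y was thus the form whose replicates both lay above the control in most of the shared regions.

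The other 20 had no enriched peak in N2, and 15 of them had no listed peak there at all. They made up 41.7% of the 48 (95% Wilson interval 28.8% to 55.7%), 40.7% of the 27 such regions of the arms and 88.2% of the 17 of X. These intervals cover counting error only, and PCR copies are not separate molecules. N2 was the shallowest of the 7 libraries, and an absence from it limits little. The recovered CLIP reads behind the 20 regions had medians of 66 and 43 for (+), 52 and 50 for C130Y and 30 and 45 for ΔRRM.

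The regions named below are, for each set and chromosome, the 2 with the highest lowest value in the libraries that decide the set, besides regions named for their locus or for a gap between forms. No annotation of build ce10 was used, so they are given by position alone and no gene is assigned to them. Where a single form decides a set, the choice favours that form, so the order of forms there only describes the chosen regions. On chromosome II the leading region of all 6 tagged libraries was 6716197 to 6716243 on the minus strand. It had log2 values of 3.74 and 4.30 for (+), 6.90 and 7.36 for C130Y and 5.83 and 4.46 for ΔRRM, and no listed peak in N2. Its CLIP reads numbered 60 and 24 for (+), 96 and 170 for C130Y and 20 and 15 for ΔRRM, over 1 to 3 input reads. Both C130Y values lay above all others there. The second on II, 11698342 to 11698414 on the same strand, had 2.96 and 3.70 for (+), 4.66 and 4.89 for C130Y and 4.19 and 4.90 for ΔRRM. Here the C130Y and ΔRRM values overlapped and both (+) values were the lowest.

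On III the short minus-strand region 4035150 to 4035169 had the highest lowest value of all 48. Its log2 was 5.31 and 7.28 for (+), 5.42 and 5.57 for C130Y and 5.32 and 5.51 for ΔRRM, on 119, 189, 120, 147, 14 and 62 CLIP reads in that order. The forms overlapped, and the no-transgene library listed 3.16 there on 4 CLIP reads and 1 input read, which did not reach the p threshold. The second, 6794489 to 6794689 on the plus strand, spans 201 nt and had 3.61 and 4.76 for (+), 4.71 and 4.71 for C130Y and 5.76 and 5.08 for ΔRRM, with no listed peak in the control. Both ΔRRM values were the highest in that region, on 19 and 23 CLIP reads over 1 input read each. The (+) values rested on 73 and 33 CLIP reads over 4 and 1 input reads. At so few input reads the order also depends on the library totals and does not compare the forms.

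On IV the plus-strand region 6705210 to 6705282 had 3.81 and 3.88 for (+), 6.07 and 5.35 for C130Y and 5.51 and 4.46 for ΔRRM. All 6 values rested on 1 input read, with 15 to 42 CLIP reads. Again both (+) values were the lowest, although their 21 and 18 CLIP reads were more than the 16 and 15 of ΔRRM. With 1 input read each, the order also depends on the CLIP and input totals and does not compare the forms. The region was not listed in N2. The plus-strand region 4239785 to 4239827 varied least, with 3.71 and 3.96 for (+), 4.12 and 4.28 for C130Y and 4.32 and 3.88 for ΔRRM. Its forms overlapped, and 2 of the 6 values rested on 7 CLIP reads.

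On V the plus-strand region 14689562 to 14689610 had 4.28 and 4.39 for (+), 5.68 and 6.22 for C130Y and 4.32 and 3.81 for ΔRRM. The no-transgene library was enriched there as well, with 3.33 on 9 CLIP reads and 2 input reads. The plus-strand region 10772103 to 10772195 had 3.17 and 3.68 for (+), 5.69 and 4.46 for C130Y and 3.73 and 4.10 for ΔRRM, and no listed peak in the control. In both, the C130Y values lay above all others. Next on V among regions absent from the control came 13198242 to 13198290 on the minus strand, with 3.03 and 2.71 for (+), 3.32 and 3.04 for C130Y and 5.18 and 3.38 for ΔRRM. There ΔRRM was the highest form.

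**Figure D5:**
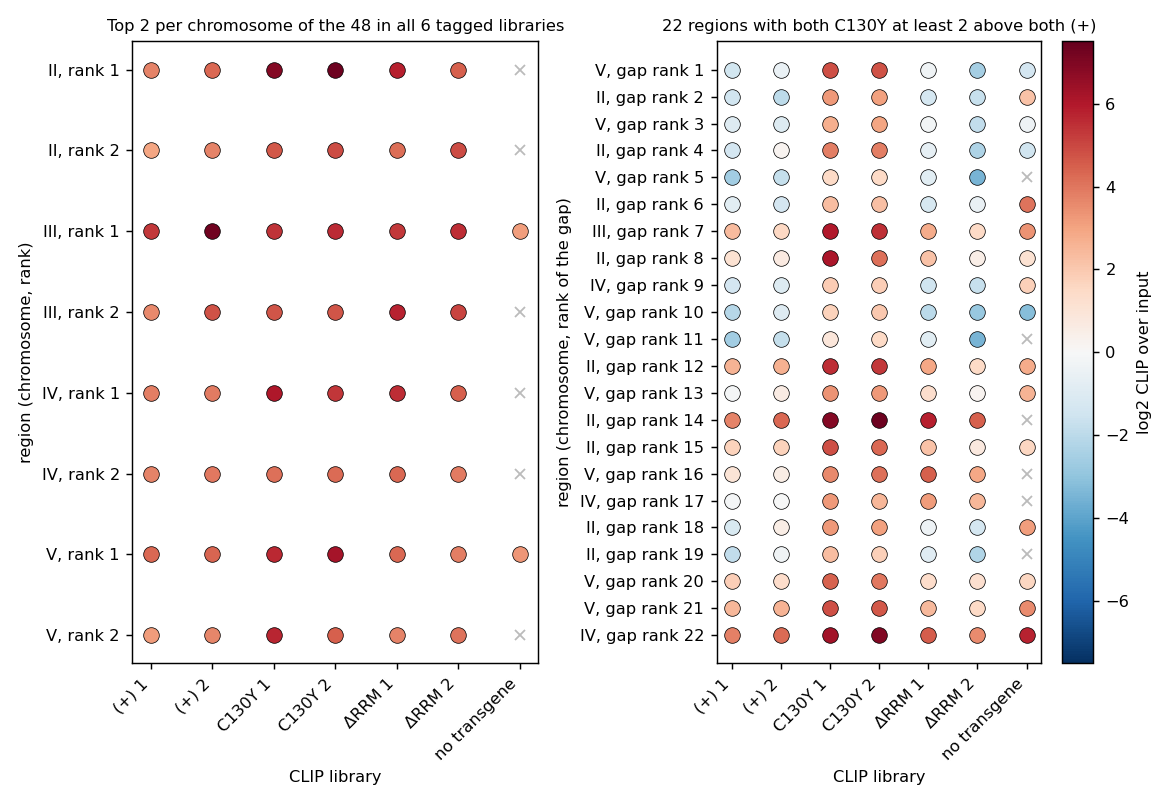
Log2 CLIP over input in every library, as colour, for the 2 regions per chromosome with the highest lowest value among the 48 enriched in all 6 tagged libraries (left) and for the 22 regions in which both C130Y values exceed both (+) values by at least 2 (right). Grey crosses mark libraries with no listed peak. On the left 6 of 8 regions have no listed peak in N2, and on the right 10 regions have negative values in both (+) libraries.

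Reproducible (+) regions with no enriched peak in ΔRRM or the control were few. There were 13 of 97 (13.4%, 95% Wilson interval 8.0% to 21.6%), against 12 of 57 (21.1%) in the arms. Of these 13, 11 held a listed peak with a log2 above 0 in at least 1 of the 3 libraries, so 2 had none, and 6 had an enriched peak in a C130Y library. By chromosome they numbered 5 on II, 2 on III, 4 on IV and 2 on V. The strongest was 7001621 to 7001663 on the plus strand of II, with 5.44 and 4.11 in (+) on 65 and 63 CLIP reads. It had 1.00 and 2.18 for C130Y, 1.32 and 0.55 for ΔRRM and, on 3 CLIP reads and 1 input read, 2.74 for N2. Both (+) values lay above all 5 others, none of which reached the p threshold. Close by on that strand, the abutting pieces 7003263 to 7003270 and 7003271 to 7003286 had 3.36 and 3.45 in (+) replicate 1 and 5.47 each in replicate 2. Both pieces had 2.32 and 0.95 in C130Y and 2.88 in ΔRRM replicate 2, on 4 to 6 CLIP reads. On III the minus-strand region 6888547 to 6888596 had 3.74 and 3.88 for (+), 2.64 and 3.71 for C130Y and 3.51 and 0.75 for ΔRRM, so that the lead of (+) over 2 of the 4 other values was small. On IV the minus-strand region 12757413 to 12757475 had 3.48 and 2.71 in (+), on 50 and 32 CLIP reads, and 1.64 and 3.50 in C130Y. It had no listed peak in either ΔRRM library or in the control, and it was 1 of the 2 without any such value. The minus-strand region 9330726 to 9330816 of IV had 2.74 and 2.65 in (+), 1.24 and 1.76 in C130Y and a listed 1.88 in ΔRRM replicate 2, on 5 CLIP reads. On III the minus-strand region 7706795 to 7706831 had 2.46 and 2.96 for (+), 2.78 and 2.28 for C130Y and 2.51 and 0.69 for ΔRRM, so that 1 ΔRRM value lay among the (+) values and the other below them.

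Both regions of the set on V had lower values. The plus-strand region 9203070 to 9203131 had 1.65 and 1.71 for (+), 0.03 and 0.82 for C130Y and 0.83 and 0.78 for ΔRRM, on 80 and 60 CLIP reads in (+). Both (+) values lay above all 4 others. The plus-strand region 12003227 to 12003311 had 1.5 and 1.88 for (+), 0.59 and 0.61 for C130Y and 1.51 and −0.71 for ΔRRM. There the first ΔRRM value, on 8 CLIP reads, lay between the (+) values.

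The reverse set was the largest. Of the 301 reproducible ΔRRM regions, 197 (65.4%, 95% Wilson interval 59.9% to 70.6%) lacked an enriched (+) peak, in 152 loci, against 79 of 130 (60.8%) in the arms and 50 of 95 (52.6%) on X. They numbered 44 on II, 55 on III, 46 on IV and 52 on V. Only 28 of the 197 had no listed (+) peak with a log2 above 0, and 64 were enriched in a C130Y library, while 1 was enriched in N2. On II the plus-strand region 11220477 to 11220556 had 4.83 and 3.64 in ΔRRM, on 10 and 17 CLIP reads, 3.54 and 3.71 in C130Y and 0.54 and 2.17 in (+). On III the plus-strand region 7859314 to 7859384 had 5.32 and 3.36 in ΔRRM, 4.64 and 2.76 in C130Y and 1.59 and 1.88 in (+). On V the plus-strand region 16367293 to 16367349 had 5.32 and 3.61 in ΔRRM, 3.64 and 4.35 in C130Y and 2.12 and 2.88 in (+). In each of these 3 regions the C130Y and ΔRRM values overlapped, and both (+) values lay below all of them. The other 5 leading regions of the set, all on the plus strand, had ΔRRM above every listed C130Y and (+) value. On II, 9333600 to 9333744 had 4.21 and 3.64 in ΔRRM, 1.64 and 0.95 in C130Y and 1.88 and 1.3 in (+). On III, 8911388 to 8911558 had 4.21 and 4.46 in ΔRRM, 1.00 and 3.28 in C130Y and 3.51 and 1.3 in (+). There C130Y and (+) overlapped, as they did on II. On IV, 9763230 to 9763288 had 4.60 and 4.88 in ΔRRM, 2.83 and 1.54 in C130Y and 1.78 and 0.88 in (+), while 12124711 to 12124757 had 4.83 and 4.25 in ΔRRM and no other listed value than 1.74 in (+) replicate 1. On V, 11602038 to 11602093 had 4.32 and 4.14 in ΔRRM on 7 and 12 CLIP reads, 1.76 in C130Y replicate 2 alone and 1.74 and 1.2 in (+). C130Y thus stood with ΔRRM in 3 of the 8 leading regions and below it, or unlisted, in 5. All 8 were ranked on ΔRRM and lacked an enriched (+) peak, so their order does not compare the forms.

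C130Y regions without an enriched (+) peak numbered 78 of 198 (39.4%, 95% Wilson interval 32.9% to 46.3%), against 41 of 99 (41.4%) in the arms. The opposite set, (+) without C130Y, held 11 of 97 (11.3%, interval 6.45% to 19.2%). In the arms it held 6 of 57 (10.5%) and in the whole series 31 of 257 (12.1%). Of the 11, 10 had a listed C130Y peak with a log2 above 0. Of the 78, 60 had a listed (+) value above 0, 41 were enriched in a ΔRRM library and 16 in N2. C130Y had more enriched peaks in the centres than (+), and the part of that number in the direction was not tested. On II the plus-strand region 11537899 to 11537930 was listed in no library but those of C130Y, with 5.90 and 3.76 on 24 and 42 CLIP reads. On IV the minus-strand region 9130729 to 9130773 had 4.59 and 4.04 in C130Y, 2.23 in (+) replicate 1 alone, and 1.19 and −0.03 in ΔRRM. Also on the minus strand of IV, 11928502 to 11928535 had 4.12 and 4.48 in C130Y, 3.00 and 2.71 in (+) on 12 and 8 CLIP reads, and 4.51 and 2.14 in ΔRRM. On III the minus-strand region 8955930 to 8955994 was a close call, with 3.00 and 3.20 in C130Y and a listed 3.51 on 17 CLIP reads in (+) replicate 1. The minus-strand region 4015888 to 4015927 of III had 3.17 and 2.88 in C130Y, 1.64 and 1.48 in (+) and 2.16 and 1.81 in ΔRRM. On V the plus-strand region 8619709 to 8619782 had 3.79 and 3.91 in C130Y, 2.16 and 1.09 in (+) and 3.71 and 2.72 in ΔRRM, so that it was absent from (+) and not from ΔRRM.

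Among the (+) regions absent from C130Y, the plus-strand region 5505057 to 5505108 on III had 2.29 and 2.60 in (+), 1.25 in C130Y replicate 2 and 3.63 and 1.42 in ΔRRM. The minus-strand region 8377887 to 8377927 on IV had 2.16 and 1.9 in (+) and 1.69 and 1.73 in ΔRRM, and no listed peak in C130Y or the control. It was the region of that set without any listed C130Y value.

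A direct comparison of values between C130Y and (+) gave regions in the centres in 1 direction only. It used the regions with a listed peak in all 4 libraries, and asked where both values of one form lay above both of the other by at least 2 on the log2 scale, a rule chosen after values had been seen. In the centres this held for C130Y over (+) in 22 of 780 regions (2.82%, 95% Wilson interval 1.87% to 4.23%), where it held in 2.14% of the 1728 such regions of the whole series. It held in 9 of 396 in the arms and in 0 of 190 on X. For (+) over C130Y it held in 0 of 780 in the centres, where it held in 0.0579% of the whole series. Regions were merged from enriched peaks, and C130Y had more of these in the centres, 548 and 407 against 264 and 272 for (+). A region could enter through its C130Y peaks alone, so the counts of both directions describe the regions and do not test the forms. The 22 lay in 18 neighbourhoods, 9 regions each on II and V, 3 on IV and 1 on III. The gap between the lower C130Y and the higher (+) value ran from 2.03 to 5.26, with a median of 2.69.

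The level in (+) varied widely within this group. In 10 of the 22 both (+) values were below 0, that is, the region had a smaller share of the CLIP reads than of the input reads, and in 7 both were at least 1. In 20 of the 22 both ΔRRM values lay below both C130Y values, and in 11 both ΔRRM values were negative. The 22 were chosen for C130Y values far above (+), so lower ΔRRM values there do not compare ΔRRM with either form. The no-transgene library listed 16 of the 22 and was enriched in 12 of them. Several had large read numbers. The minus-strand region 10545139 to 10545202 on II had −1.5 and −1.96 for (+), 3.25 and 3.10 for C130Y and −1.31 and −1.75 for ΔRRM. Its C130Y values rested on at least 595 and 1669 CLIP reads and its (+) values on at least 215 and 227. The no-transgene library had 2.18 there, on 75 CLIP reads and 37 input reads, and in the neighbouring piece 10545204 to 10545262 its 4.07 exceeded the C130Y values of 2.32 and 2.23. In that neighbourhood the control lay with C130Y, above (+) and ΔRRM.

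On V, 5 of the 9 regions lay between 14028475 and 14277725. The first of them, 14028475 to 14028517 on the minus strand, had the largest gap of the 22, with −1.46 and −0.51 for (+), 4.86 and 4.75 for C130Y, −0.33 and −2.54 for ΔRRM and −1.39 for N2. The plus-strand region 14092579 to 14092617 had −0.98 and −1.03 for (+), 2.74 and 2.97 for C130Y, −0.20 and −1.85 for ΔRRM and −0.39 for N2. Its reads were at least 1354 and 331 in (+) and at least 4555 and 6865 in C130Y. Farther along, the plus-strand region 14277688 to 14277725 had −2.14 and −0.96 for (+), 1.76 and 2.04 for C130Y, −1.99 and −2.82 for ΔRRM and −3.18 for N2. In all 3 the C130Y values were the only positive ones. The minus-strand region 14097446 to 14097479, with 1.5 in both C130Y libraries and −2.58 and −1.80 in (+), lay between the last pair.

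On II the plus-strand region 7171927 to 7171961 had −1.37 and 0.19 for (+), 3.86 and 3.86 for C130Y, −0.67 and −2.31 for ΔRRM and −1.5 for N2. The abutting piece 7171914 to 7171926 was listed for C130Y alone, with 3.75 and 4.64. In contrast, the plus-strand region 7141399 to 7141423 on III was enriched in every library, with 2.4 and 1.56 for (+), 6.02 and 5.46 for C130Y, 2.81 and 1.47 for ΔRRM and 3.37 for N2. The plus-strand region 5543636 to 5543675 on II was of the same kind, with 2.62 and 2.64 for (+), 5.52 and 5.32 for C130Y, 2.93 and 1.52 for ΔRRM and 2.76 for N2. In both, the control lay above or among the (+) and ΔRRM values, and the C130Y values lay far above it.

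Other leading C130Y regions fell on either side of this margin. The minus-strand region 5317267 to 5317293 on IV had 3.77 and 4.27 for (+), 6.30 and 6.97 for C130Y, 4.51 and 3.54 for ΔRRM and 5.80 for N2. Its gap was the smallest of the 22, and the control lay above both (+) values. The plus-strand region 5261953 to 5261999 on IV, 3.77 and 5.40 for (+), 5.69 and 6.74 for C130Y and 5.24 and 3.31 for ΔRRM, missed it, and the control had 5.25 there. On V the minus-strand region 15029026 to 15029061 had 3.86 and 4.41 for (+), 5.75 and 5.95 for C130Y, 3.01 and 2.67 for ΔRRM and 3.96 for N2, and missed it too. The leading (+) regions that follow had no such excess. On III the plus-strand region 7387556 to 7387646 had 4.23 and 4.14 for (+), 3.32 and 3.04 for C130Y, 2.83 and 1.00 for ΔRRM and 4.16 in the control, and both (+) values were the highest among the tagged libraries. On IV the minus-strand region 10902894 to 10902933 had 4.46 and 4.62 for (+), 4.78 and 4.71 for C130Y and 4.68 and 3.55 for ΔRRM, on 8 to 33 CLIP reads and 1 input read each.

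Regions also gathered in loci. Of the 621 loci, 336 (54.1%) held 1 region and 49 held 5 or more, and the 8 with the most held 76 regions, 6.01% of the 1264. The largest, 9757656 to 9764357 on the plus strand of IV, held 13 regions in 6702 nt. The numbers of its regions enriched were 4 and 1 for (+), 7 and 4 for C130Y and 9 and 5 for ΔRRM, with 0 in N2. Its region 9763347 to 9763398 had 5.32 and 3.14 in ΔRRM, 3.32 and 2.95 in C130Y and 1.59 and 1.71 in (+), and 9760130 to 9760237 had 2.28 and 2.41 in (+). The piece 9761110 to 9761175 was the most shared one, with an enriched peak in 5 libraries. On II, 11211200 to 11224195 on the plus strand held 12 regions, of which 6 were enriched in C130Y replicate 1, 6 in N2 and 1 in each other library. That locus was thus mainly one of the control and of a single C130Y library.

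Of the remaining 6 loci, 10542446 to 10548836 on the minus strand of II held 11 regions. It combined the pieces described above, high in C130Y and the control, with 10542446 to 10542523, which had 5.35 and 2.72 in ΔRRM, 0.92 and 1.80 in (+) and no listed peak in C130Y. The locus 8784852 to 8789646 on the plus strand of II held 10 regions, 8 and 5 of them enriched in C130Y, 3 and 7 in ΔRRM, 2 and 2 in (+) and 0 in the control. Its pieces 8788689 to 8788710 and 8788759 to 8788787 were enriched in 5 libraries each, with 2.05 and 2.41 in (+) at the first. On the minus strand of II, 9617504 to 9618776 packed 8 regions into 1273 nt, enriched 5 and 5 times in ΔRRM, 3 and 2 times in C130Y, 1 and 0 times in (+) and 0 times in the control. Its piece 9618360 to 9618422 had 4.97 and 2.34 in ΔRRM against 1.65 and 0.61 in (+). The locus 6222277 to 6226616 on the minus strand of V held 8 regions, enriched 5 and 3 times in ΔRRM and 0 and 2 times in (+). On III, 3864662 to 3869433 held 7 regions on the plus strand, 4 in each ΔRRM library and 1 in each other tagged library, and 4490343 to 4501403 held 7 on both strands, with none in (+). In 5 of these 8 loci the control had no enriched peak.

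The no-transgene library had 252 enriched regions in the centres, of which 134 were enriched in it alone. In the arms 75 of 130 were enriched in it alone, and in the whole series 285 of 521. Of the 134, 121 and 80 had a listed peak for (+), 109 and 94 for C130Y and 44 and 54 for ΔRRM. Where listed, the (+) log2 had medians of 0.71 and −0.16, against 3.23 in the control. C130Y medians stood at 0.65 and 0.31, ΔRRM medians at 1.07 and 0.50. Choosing regions enriched in the control alone favours its values, so this gap does not compare the control with the tagged forms. The overlap with the tagged lists differed by form. The shared regions were 71 and 45 with (+), or 39.0% and 27.1% of those lists, 100 and 63 with C130Y, or 25% and 22.9%, and 54 and 36 with ΔRRM, or 7.63% and 8% of those lists. As shares of the control's own regions these came to 28.2% and 17.9%, 39.7% and 25%, and 21.4% and 14.3%. The former shares are of lists with more enriched peaks in ΔRRM than in (+), and the part of that number was not tested. With the control's own regions as denominator ΔRRM replicate 1 lay above (+) replicate 2. In the arms the shares of the tagged lists were 44.1% and 29.5% for (+), 23.4% and 20.7% for C130Y and 10.9% and 11.1% for ΔRRM.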

How the data were processed

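The seCLIP peaks were called and deposited by the authors library by library. Per the submitters' processing notes, the build was ce10 and the tools were SAMtools 1.4.1, STAR 2.4.0i and cutadapt 1.9.1. The peak-calling program was not given in the sources used here. The deposited log2 values are CLIP over the library's own input, and the deposited −log10 p-values are per peak. They reached a cap of 400, were 0 wherever the log2 was below 0, and describe or filter peaks within a list. Peaks at a log2 below 0 therefore carry no test.

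Lists hold no read numbers. Reads and totals were recovered as the whole CLIP and input reads, with at least 1 input read, that give a peak's log2 and its Fisher or, from 5 reads on, Yates chi-square p, within 0.001 or 1%. This held for 94.3% to 99.2% of peaks with a p-value, and for 76.4% to 96.9% of enriched centre peaks. Where p was at the cap or 0, the log2 alone gave the reads in lowest terms, printed as lower bounds. Recovery, merging and the tests were checked on simulated data. Totals are 0.192 to 1.72 M CLIP reads, and intervals cover counting error only.

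Counts of enriched peaks were compared between forms by exact permutation of libraries, and centre against arm or X by exact sign-flip over libraries. A region's value in a library is that of the overlapping enriched peak, or else listed peak, of highest log2. Named are, per set and chromosome, the 2 regions with the highest lowest log2 in the deciding libraries, and the 8 loci with the most regions. Members, sets and lists were chosen with earlier results of these data known. Other thresholds, bounds and overlaps, joined pieces, left-out libraries and a replicate block were tried. Input libraries entered only through the ratios. Genes and sequences were not assigned, because the annotation at hand is of another build than ce10. Scripts used Python 3.11.15, numpy 2.4.6, scipy 1.17.1, pandas 2.3.3 and matplotlib 3.10.9.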

Additional observations from a re-analysis of the deposited data

How the results depend on the processing

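Of 221 alternative values, 172 kept their direction, their side of the threshold or, for numbers of regions, stayed within 1.5 times, and 0 reversed. Many of these could not have changed, so the tally does not measure robustness. Leaving out a library outside a comparison alters nothing in it. Comparisons of 2 against 2 libraries cannot pass the threshold, and numbers of regions have no direction to reverse. The difference between centres and arms was 0.65 points at a −log10 p of at least 5 (exact permutation p = 0.0625) and 0.174 at a log2 of at least 3, and 0.754 to 1.373 with 1 library left out, where 5 libraries cannot give an exact p under 0.0625. Against X it became −1.145 at a log2 of at least 3, past the threshold. Joined pieces, bounds moved inwards by 0.5 Mb, the stricter overlap and, chosen after seeing the data, leaving out chromosome V ended no call. The numbers of regions depended on the thresholds, and the cause was not tested. At a −log10 p of at least 1.3 there were 202 reproducible regions in (+), 387 in C130Y and 699 in ΔRRM, 96 in all 3 forms, 62 of these absent without a transgene, 24 of (+) absent from ΔRRM and the control, 27 of (+) absent from C130Y, 140 of C130Y and 451 of ΔRRM absent from (+). At 5 there were 159 reproducible regions in ΔRRM, 13 of all 3 forms absent from the control, 7 of (+) absent from ΔRRM and the control, 5 of (+) absent from C130Y and 101 of ΔRRM absent from (+). At a log2 of at least 3 there were 30, 60 and 55 reproducible regions, 9 in all 3 forms, 6 of these absent from the control, and 34 each for C130Y and ΔRRM without (+). With 1 library left out, and 1 library then deciding for its form, the ranges were 97 to 185 for (+), 199 to 412 for C130Y, 301 to 720 for ΔRRM, 21 to 49 for all 3 forms without the control, 13 to 38 for (+) without ΔRRM and control, 11 to 55 for (+) without C130Y, 80 to 248 for C130Y without (+) and 197 to 571 for ΔRRM without (+). The highest came without ΔRRM replicate 2, C130Y replicate 2, (+) replicate 2 or the control.

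Deviations of same-numbered libraries correlated across 643 regions with r of 0.08, −0.12 and −0.04. These values do not settle whether same-numbered libraries were handled together. With a replicate block the log2 differences in enriched peaks were 1.27 for ΔRRM and 0.82 for C130Y over (+) and −0.45 for C130Y over ΔRRM, each with an exact p of 0.5, the smallest of 2 pairs. Crossing the numbers for ΔRRM and (+), chosen after seeing the data, gave 1.27 and 0.5 again. Neither pairing could alter a log2 difference, since the mean over pairs is the same however libraries are paired. With 2 pairs of equal sign the exact sign-flip p is always 0.5, so these checks carry no support. Depth limits the control most, with 0.192 M CLIP reads.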

Other observations

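In the centres 130 of the 301 reproducible ΔRRM regions lay on the plus strand, 99 of the 198 of C130Y, 49 of the 97 of (+) and 6 of the 20 of all 3 forms absent from the control. In the whole series these were 347 of 686, 264 of 461, 151 of 257 and 37 of 71, and no difference between strands was tested. Among enriched centre peaks of single libraries the plus strand held 46.2% to 52.6%.

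Peaks with a log2 of at least 1 often missed the p threshold in the shallow libraries. In the centres these were 27.7% and 26.0% of the listed peaks for (+), 37.9% and 30.3% for C130Y, 69.8% and 59% for ΔRRM and 57.1% for N2. The median listed centre peak had a log2 of 0.20 and 0.30 for (+), 0.90 and 0.54 for C130Y, 2.10 and 1.29 for ΔRRM and 1.57 for N2. Where reads were recovered, the median was 4 to 6 CLIP reads.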
